A study of Mus musculus with 6 samples.

Results

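The transcripts described here are those of the type VI collagen genes *Col6a1*, *Col6a2*, *Col6a3*, *Col6a5* and *Col6a6*, 5 of the 49548 genes in a count table of native cardiac fibroblasts (CFs). Their rule used gene symbols and no measured value of this table, although the gene family was picked with earlier results of these data known, and all 5 passed the filter on low counts, as did 15789 genes in total. The table holds 3 wild-type (WT) and 3 CharmeKO libraries, made from the hearts of C57BL/6J mice aged 5 weeks. In CharmeKO mice a poly(A) signal was inserted into the locus of *Charme*, a long non-coding RNA of muscle, in every cell of the animal and not in fibroblasts alone. Native CFs were the cells left after dissociation of the heart and depletion of the hematopoietic lineage, so they were enriched and not sorted. The study describes 3 biological replicates per group and does not tie each library to 1 animal. The sequenced RNA was poly(A)-selected in directional libraries, with 9595701 to 42101393 counts per WT library and 23550718 to 31048606 per CharmeKO library. Counts of *Charme* itself were 26, 15 and 4 in WT and 7, 0 and 0 in CharmeKO replicates 1 to 3. A count of 0 leaves room for as many as 3, which is 0.0966 to 0.127 CPM (counts relative to library size) in those 2 libraries.

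The 6 libraries also differed in transcripts that the labels do not group them by. *Xist*, transcribed from the inactive X chromosome, was at 394 CPM in WT replicate 1 and at 473 and 376 CPM in CharmeKO replicates 1 and 2, and at 2.55 CPM or less in the other 3. Summed CPM of 4 Y-linked genes was 95.3 to 113 in WT replicates 2 and 3 and CharmeKO replicate 3, and 4.75 or less in the others. The *Xist* side of this split thus held 1 WT and 2 CharmeKO libraries and the Y-linked side 2 WT and 1 CharmeKO library, and values within each side are given beside each member and beside the sum of the main chains.

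Type VI collagen is a short-helix collagen of the matrix that surrounds cells, made by fibroblasts in the heart as in most connective tissue. An α1 chain (*Col6a1*), an α2 chain (*Col6a2*) and an α3 chain (*Col6a3*) fold into a heterotrimer, which pairs into dimers and tetramers inside the cell and is secreted to form beaded microfilaments. The α4, α5 and α6 chains (*Col6a4*, *Col6a5*, *Col6a6*) resemble α3 and can take its place in the trimer. The microfilaments link cells and basement membranes to the fibrillar network of collagens I and III, and mutations in the genes of the 3 main chains cause muscle disease.

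In the gene models of GENCODE release M21, the α1 and α2 chains are short and the other chains long. The longest coding transcript has 4100 bases in 35 exons for *Col6a1* (ENSMUSG00000001119), 3949 bases in 28 exons for *Col6a2* (ENSMUSG00000020241) and 10106 bases in 44 exons for *Col6a3* (ENSMUSG00000048126). It has 9289 bases in 41 exons for *Col6a5* (ENSMUSG00000091345) and 8781 bases in 37 exons for *Col6a6* (ENSMUSG00000043719). *Col6a1* and *Col6a2* are neighbours on the same strand of chromosome 10, with 0 protein-coding genes between them, and *Col6a6*, *Col6a5* and *Col6a4* follow each other in the same way on chromosome 9. *Col6a3* stands apart from both clusters on chromosome 1.

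Promoter sequence is shown to let the members be compared at their starts. RefSeq promoter windows on GRCm38.p6, from 250 bases before to 50 bases after each start, were found for all 5 members, and were searched on both strands for 5 short motifs. The letters searched were TGACTCA for AP-1, GGGCGG for the GC box, TATAAA for the TATA box, CCCTCCC for the CT box and CCAAT for the box of that name. The stretches below are 30 bases each, 5′ to 3′ on the strand of the gene, with matched letters in capitals, and a match on the opposite strand appears as its reverse complement. Distances are from the start used for the window, and an annotated start lies further upstream in each gene shown. Upstream of the outermost RefSeq or GENCODE start, 126 of the 250 bases remained for *Col6a1*, 220 for *Col6a3*, 89 for *Col6a6* and 0 for *Col6a5*. Only the *Col6a3* stretch thus lies before every annotated start, and the others lie inside the annotated gene.
*Col6a1*, AP-1 match 90 bases before the start, chr10:76726116-76726145, minus strand: tgctgatgctgTGACTCActcagctttgag
*Col6a1*, overlapping CT box matches from 19 bases before the start, chr10:76726045-76726074, minus strand: tctttgcacctCCCTCCCTCCCTCCCtcca
*Col6a3*, CT box match 132 bases before the start, chr1:90844085-90844114, minus strand: gtcctatggcaGGGAGGGgagaagaggggt
*Col6a6*, GC box match 142 bases before the start, chr9:105828209-105828238, minus strand: caggagtttggGGGCGGtccacgttgcaga
*Col6a5*, GC box match 57 bases before the start, chr9:105960682-105960711, minus strand: ccaagggcgcaGGGCGGgagtcagcgctga

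CT box letters were found in *Col6a1* (6 matches), *Col6a2* (3 matches in the inner of its 2 windows and 1 in the outer) and *Col6a3* (1 match), and in 22.0% of 32851 promoter windows. Neither *Col6a5* nor *Col6a6* held them, and both held the GC box, which 35.7% of windows hold and which was also found in *Col6a2* (3 matches in the inner window and 1 in the outer). The AP-1 letters, held by 5.20% of windows, were found in *Col6a1* alone among the members. The TATA box, held by 13.6% of windows, and CCAAT, held by 37.4%, were in no window of a member. GC content was 56.3% to 65.0% in these windows, against a median of 52.7% over all. These letters are a description of the windows and not evidence of binding.

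The main chains were among the most abundant transcripts of the libraries. By mean normalized CPM (after TMM scaling between libraries), *Col6a2* ranked 38, *Col6a1* 41 and *Col6a3* 93 among the 15789 tested genes, *Col6a6* ranked 1575 and *Col6a5* 12510. Long transcripts collect more reads, so levels were compared between genes per kilobase of the longest coding transcript. On that scale WT libraries had 662 ± 140.4 CPM per kb of *Col6a2* and 572 ± 68.3 of *Col6a1* (SD, n = 3), whose ranges overlapped. *Col6a3* followed at 141 ± 33.4, *Col6a6* at 19.2 ± 4.31 and *Col6a5* at 0.127 ± 0.131 CPM per kb (SD, n = 3), each below the range of the one before it. The order was the same in CharmeKO libraries, with 413 ± 131 CPM per kb of *Col6a2*, 392 ± 105.3 of *Col6a1*, 78.9 ± 13.1 of *Col6a3*, 8.36 ± 3.76 of *Col6a6* and 0.199 ± 0.162 of *Col6a5* (SD, n = 3).

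Within single libraries, the per-kilobase level of *Col6a1* was 3.75 to 5.44 times that of *Col6a3*, and the level of *Col6a3* 4.57 to 12.6 times that of *Col6a6*. On this per-kilobase scale the 3 chains that form the trimer were unequal in each library, *Col6a3* being the lowest. How evenly reads covered transcripts of different length was not examined. *Col6a2* was 1.00 to 1.23 times *Col6a1* per kilobase. With the union of all exons as length, that ratio was 0.507 to 0.624, so the order of those 2 genes depends on the transcript assumed. The order of *Col6a1*, *Col6a3* and *Col6a6* did not turn.

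**Figure D1:**
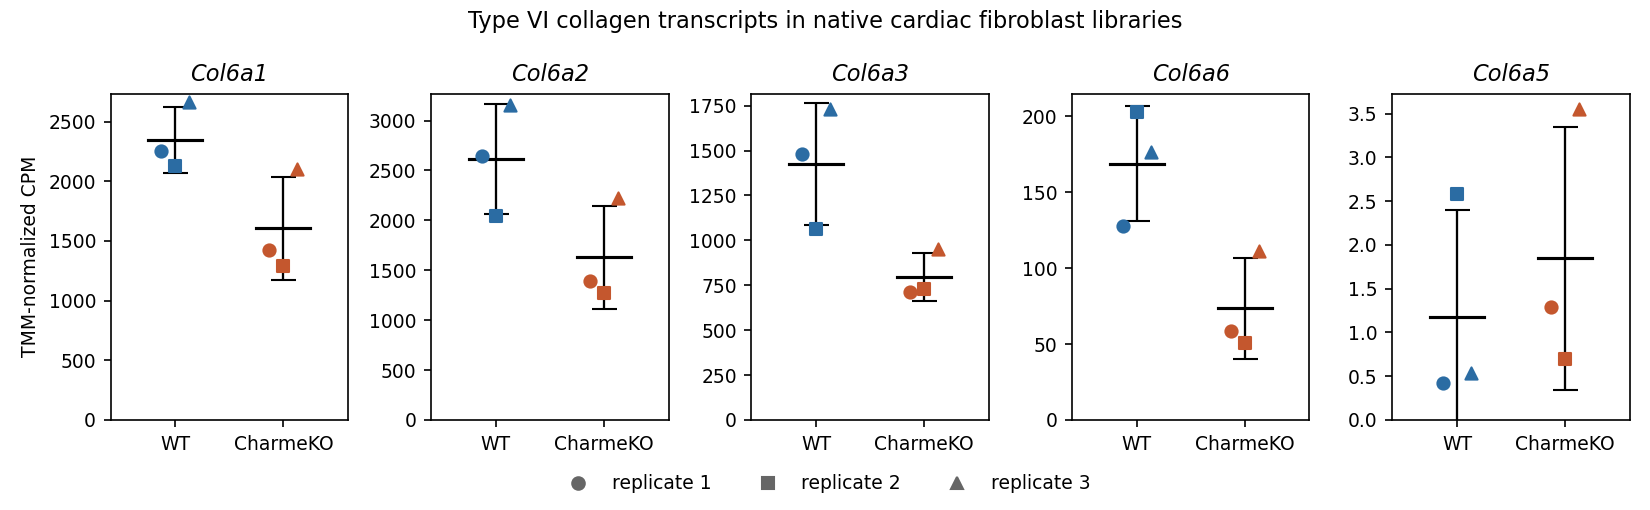
Normalized CPM (y axis, linear, a scale of its own per gene) of the 5 type VI collagen genes in each library, by group on the x axis, with the mean (long bar) and SD (whiskers) of 3 libraries and a symbol for each replicate. The CharmeKO points of *Col6a1*, *Col6a3* and *Col6a6* all lie below the WT points, those of *Col6a2* overlap because CharmeKO replicate 3 (2221 CPM) lies above WT replicate 2 (2046 CPM), and those of *Col6a5* are spread over both groups.

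Comparing CharmeKO with WT asks whether native CFs of knockout hearts carry less mRNA for this collagen. Log2 fold changes of *Col6a1*, *Col6a2*, *Col6a3* and *Col6a6* were negative, between −0.55 and −1.20, and that of the barely detected *Col6a5* was positive. After adjustment 0 of the 5 members had an adjusted p under 0.05 in edgeR's quasi-likelihood test, in which 0.412% of all tested genes passed as lower in CharmeKO. At an unadjusted p under 0.05, 4 of the 5 passed as lower, against 6.87% of all tested genes. The 3 CharmeKO libraries lay below the 3 WT libraries for 3 of the 5 members, against 8.59% of all tested genes. The median log2 fold change of the members was −0.68, beside a median of 0.0097 over all tested genes and of −0.10 over genes with a mean of at least 1000 CPM. In bulk libraries, fewer cells of a type and less RNA per cell cannot be told apart.

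*Col6a1*, the α1 chain present in every type VI trimer, was at 2253, 2125 and 2661 CPM in WT replicates 1 to 3 and at 1426, 1294 and 2099 CPM in CharmeKO replicates 1 to 3. CharmeKO replicate 3 came close to the lowest WT library, while the other CharmeKO libraries were well under it. The group means were 2347 ± 280.0 CPM in WT and 1606 ± 432 CPM in CharmeKO (SD, n = 3), with log2 fold change −0.55 (standard error 0.187, 95% interval −0.96 to −0.14), 31.5% lower by the fit, with an adjusted p of 0.262 in edgeR. Without CharmeKO replicate 3 the adjusted p was 0.0486 at a log2 fold change of −0.79, and it ranged from 0.139 to 0.660 without each of the other 5 libraries. On the *Xist* side of the libraries, the mean log2 difference was −0.73, and on the Y-linked side it was −0.18, where the CharmeKO library at 2099 CPM met WT libraries at 2125 and 2661 CPM.

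*Col6a2*, the α2 chain and genomic neighbour of *Col6a1*, was at 2641, 2046 and 3155 CPM in WT and at 1394, 1272 and 2221 CPM in CharmeKO, in the same order of replicates. The highest CharmeKO library lay above the lowest WT library, so the groups overlapped. Means of 2614 ± 555 CPM in WT and 1629 ± 516 CPM in CharmeKO (SD, n = 3) gave a log2 fold change of −0.68 (standard error 0.223 and 95% interval −1.17 to −0.19), with an adjusted p of 0.241 in edgeR. DESeq2, run on the same genes, gave an adjusted p of 0.0335, and the gene was among the 1.51% of tested genes that DESeq2 called lower. The log2 difference was −0.99 on the *Xist* side and −0.19 on the Y-linked side, where the groups overlapped.

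*Col6a3*, whose long α3 chain is cleaved after secretion to release a C-terminal fragment known as endotrophin, was at 1479, 1065 and 1733 CPM in WT and at 712, 730.4 and 950.3 CPM in CharmeKO. All CharmeKO libraries lay below all WT libraries, and this was the member of the main trimer with the most negative fold change. Its means were 1425 ± 337 CPM and 798 ± 133 CPM (SD, n = 3), a log2 fold change of −0.84 (standard error 0.189, 95% interval −1.25 to −0.42), or 44.0% lower by the fit. The edgeR adjusted p was 0.0830 and that of DESeq2 was 0.00031. It was 0.00515 in edgeR without WT replicate 2, the lowest WT library, at a log2 fold change of −1.01, and from 0.0594 to 0.380 without each of the others. Both sides of the *Xist* split kept the direction, with log2 differences of −1.04 on the *Xist* side and −0.52 on the Y-linked side.

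*Col6a6*, an α3-like chain, was at 128, 202 and 176 CPM in WT and at 58.6, 50.4 and 111 CPM in CharmeKO. The groups did not overlap, and the lowest WT library was the one on the *Xist* side. The means of 169 ± 37.8 CPM and 73.4 ± 33.1 CPM (SD, n = 3) gave the most negative log2 fold change among the members, −1.20 (standard error 0.266, 95% interval −1.78 to −0.62), or 56.4% lower by the fit. The adjusted p was 0.0763 in edgeR, 0.00552 without CharmeKO replicate 3, at −1.63, from 0.073 to 0.345 without each of the others, and 0.103 in DESeq2. Within the *Xist* side the log2 difference was −1.23, with CharmeKO libraries at 58.6 and 50.4 CPM against 128 CPM in WT. Within the Y-linked side it was −0.76, with 111 CPM against 176 and 202 CPM. With a term for that split in the edgeR model, an alternative chosen after the counts were seen, *Col6a6* was the 1 member called, at a log2 fold change of −1.00 (adjusted p = 0.00677), where 0.317% of tested genes were called lower.

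*Col6a5*, an α3-like chain expressed in few tissues, had 18, 68 and 5 counts in WT and 37, 17 and 108 counts in CharmeKO. These were 0.423, 2.59 and 0.538 CPM in WT and 1.29, 0.695 and 3.55 CPM in CharmeKO, so the groups overlapped. Counting error alone was wide at these levels, with an exact 95% Poisson interval of 0.175 to 1.25 CPM for WT replicate 3, and such intervals leave out other sources of error. The log2 fold change was 0.61 (standard error 0.734, 95% interval −1.00 to 2.22), with an adjusted p of 0.791 in edgeR, and it turned to −0.28 without CharmeKO replicate 3. The log2 difference was 1.16 on the *Xist* side and 1.59 on the Y-linked side. *Col6a4*, the remaining α3-like gene and not one of the 5 members, had 0, 3 and 0 counts in WT and 0, 2 and 8 in CharmeKO and was not tested. Of its transcript, 0% of 50-base stretches occur in another gene, as for the 3 main chains, while 3.42% of those of *Col6a5* occur in *Col6a6*, and 3.54% of those of *Col6a6* in other genes.

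**Figure D2:**
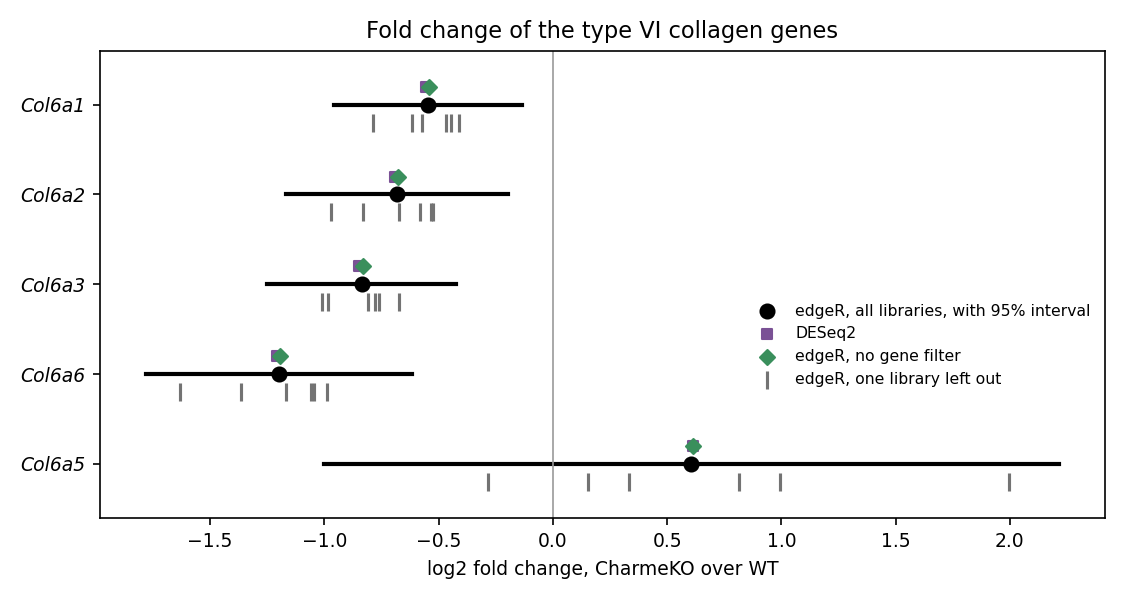
Log2 fold change of CharmeKO over WT (x axis) for the 5 genes (y axis), with black points and lines for the edgeR fit on all libraries and its 95% interval, squares for DESeq2, diamonds for edgeR without a gene filter and ticks for fits with 1 library left out. For *Col6a1*, *Col6a2*, *Col6a3* and *Col6a6* all symbols lie below 0, from −0.41 to −1.63, whereas those of *Col6a5* run from −0.28 to 2.00.

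The sum of *Col6a1*, *Col6a2* and *Col6a3* was 6372, 5236 and 7548 CPM in WT and 3532, 3296 and 5270 CPM in CharmeKO. CharmeKO replicate 3 was again level with the lowest WT library. On the log2 scale the difference was −0.68 (exact permutation test, two-sided, p = 0.2, where 3 libraries against 3 cannot give less than 0.1), a ratio of 0.625. It was −0.90 within the *Xist* side and −0.26 within the Y-linked side.

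Whether the chains changed their balance was read from ratios within each library, which do not depend on library scaling. The log2 ratio of *Col6a2* to *Col6a1* was 0.23, −0.055 and 0.25 in WT and −0.033, −0.024 and 0.081 in CharmeKO, which differed by −0.13 (exact permutation test, p = 0.4). That of *Col6a3* to *Col6a1* was −0.61, −1.00 and −0.62 in WT and −1.00, −0.82 and −1.14 in CharmeKO, a difference of −0.25 (exact permutation test, p = 0.2). *Col6a3* relative to *Col6a2* differed by −0.12 (exact permutation test, p = 0.6). Groups overlapped in these 3 ratios, so no shift between the chains of the trimer was resolved with 3 libraries per group, and an unchanged balance was not shown either. The same held for *Col6a6* relative to *Col6a3*, a ratio added after the counts were seen, which was −3.53, −2.40 and −3.30 in WT and −3.60, −3.86 and −3.09 in CharmeKO (difference −0.44, exact permutation test, p = 0.4). These 4 tests belong to 1 family of 8 two-sided tests, all with p-values of 0.2 or more before any adjustment. Of the summed CPM of the 5 members, *Col6a1* took 36.1 ± 2.60% in WT and 39.1 ± 0.543% in CharmeKO (SD, n = 3), *Col6a2* 39.7 ± 1.81% and 39.4 ± 1.68%, *Col6a3* 21.6 ± 1.75% and 19.8 ± 2.09%, and *Col6a6* 2.66 ± 0.935% and 1.74 ± 0.295%.

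Type VI collagen was then set against the other abundant collagens. The sum of *Col1a1*, *Col1a2* and *Col3a1*, which encode the fibrillar collagens I and III, was 11547 to 17725 CPM in WT and 7390 to 13419 CPM in CharmeKO. The log2 ratio of the type VI sum to it was −1.40, −1.14 and −1.23 in WT and −1.34, −1.17 and −1.35 in CharmeKO, which differed by −0.027 (exact permutation test, p = 0.9). Relative to *Col4a1* and *Col4a2*, the chains of the basement membrane collagen IV, it was −1.02, −1.22 and −1.10 in WT and −0.98, −1.28 and −1.24 in CharmeKO, a difference of −0.058 (exact permutation test, p = 0.7). Fold changes of these 5 genes were themselves negative, from −0.53 for *Col4a1* to −0.77 for *Col1a1*, with adjusted p-values of 0.189 to 0.347 in edgeR. DESeq2 called *Col1a1* (adjusted p = 0.0104) and *Col4a2* (adjusted p = 0.0348) lower and not the other 3. The type VI sum was thus not found to differ in its change from the sums of these 5 chains, within the spread of 3 libraries per group. Other chains of both classes lie outside those sums. Of all 6 type IV genes edgeR called 2 lower, and of 10 tested fibrillar collagen genes 0, beside 0.412% of all tested genes.

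The log2 ratio to the sum of 15 fibroblast markers outside the matrix was −1.81, −2.54 and −1.52 in WT and −2.79, −2.84 and −2.31 in CharmeKO. Its group means were −1.96 ± 0.526 and −2.64 ± 0.295 (SD, n = 3), differing by −0.69 (exact permutation test, p = 0.2), and the groups overlapped through WT replicate 2. The summed level of that list was 21600 to 30400 CPM in WT and 23600 to 26000 CPM in CharmeKO, and 80.2% to 86.9% of it was *Gsn*. Of the 15 genes, 8 fold changes were negative and 7 positive, 3 were lower and 1 higher at an unadjusted p under 0.05, edgeR called 0 and DESeq2 called 1 lower. That 1 was *Cd248*, which encodes endosialin, with a log2 fold change of −0.78 (adjusted p = 0.166 in edgeR and 0.0088 in DESeq2), while *Hsd11b1*, a steroid dehydrogenase, had the most positive, 1.02 (adjusted p = 0.292 in edgeR). *Pdgfra* alone, a receptor that marks cardiac fibroblasts, was at 401, 463 and 418 CPM in WT and 415, 464 and 361 CPM in CharmeKO. With *Pdgfra* as denominator the difference was −0.63 (exact permutation test, p = 0.2). With the mean of log2(CPM + 1) in place of each sum, so that all 15 markers weighed equally, the difference was −0.65 (exact permutation test, p = 0.1, the lowest possible).

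**Figure D3:**
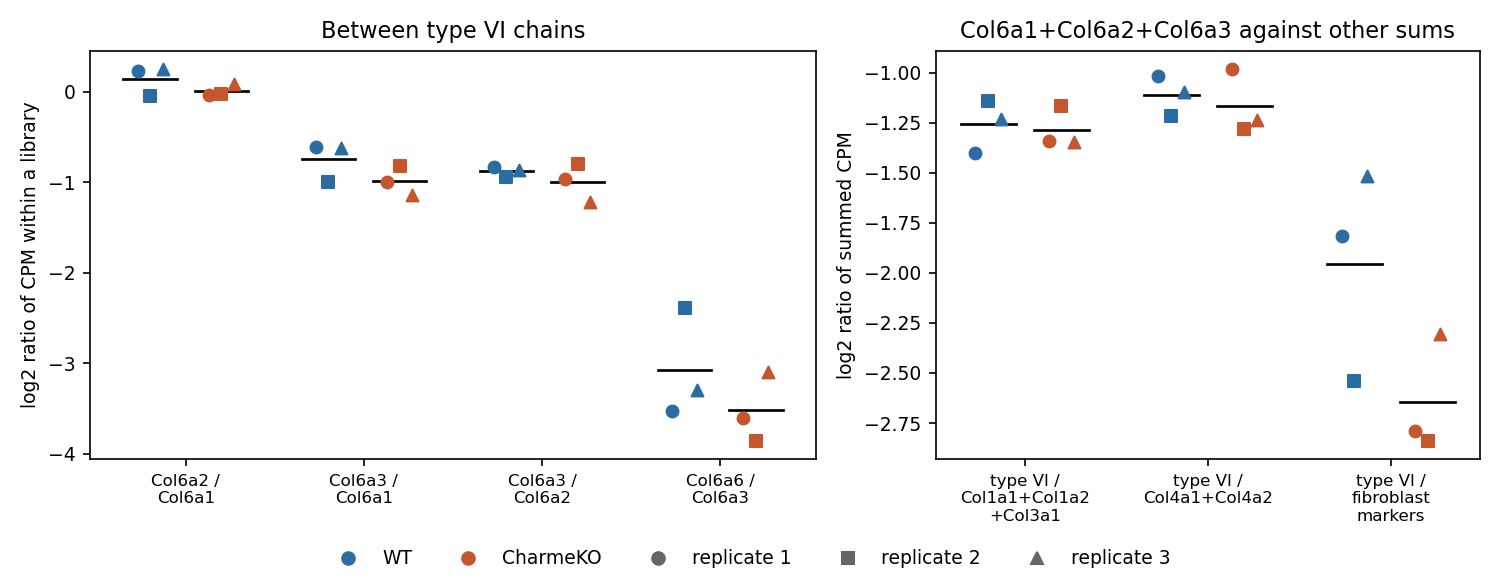
Log2 ratios within each library (y axes) between type VI chains (left) and of the type VI sum to other sums (right), for 3 WT and 3 CharmeKO libraries, with a bar at each group mean and a symbol for each replicate. Groups overlap in all 7 ratios, with mean differences from −0.027 for the fibrillar collagens to −0.69 for the fibroblast markers.

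The level of the main chains over the 6 libraries was described by the mean of their log2(CPM + 1) values, each centred on its own mean. This profile was 0.37, 0.063 and 0.61 in WT and −0.51, −0.59 and 0.042 in CharmeKO, highest in WT replicate 3 and lowest in CharmeKO replicate 2. Of 8911 other tested genes with a mean of at least 10 CPM, those with the smallest root mean square (RMS) difference from it were *Col5a2* (0.0743), *Loxl1* (0.0794), *Metrnl* (0.0805), *Cercam* (0.0867) and *Mmp23* (0.0909). *Adamtsl4* (0.0917), *Col1a2* (0.0922), *Adamts2* (0.0951), *Sez6l2* (0.104) and *Col18a1* (0.110) completed the nearest 10, and the median over all genes compared was 0.458. Several act on the fibrillar matrix: *Col5a2* encodes a chain of collagen V, *Loxl1* an enzyme that cross-links elastin, and *Adamts2* the protease that trims the N-propeptide of fibrillar procollagens. *Col1a1* ranked 13, *Col4a2* 15, *Col4a1* 31 and *Col3a1* 49 in this order. *Col6a6* ranked only 3503, with an RMS difference of 0.429. *Col6a5* was under the limit of 10 CPM, at a mean of 1.51 CPM, and its RMS difference was 0.822. *Col6a6* was highest in WT replicate 2 (0.91), where the main chains were at their lowest WT level. It was also further below its own mean in CharmeKO replicates 1 and 2 (−0.86 and −1.07) than the main chains were. The likeness is a description over 6 libraries that share a preparation and carries no test.

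**Figure D4:**
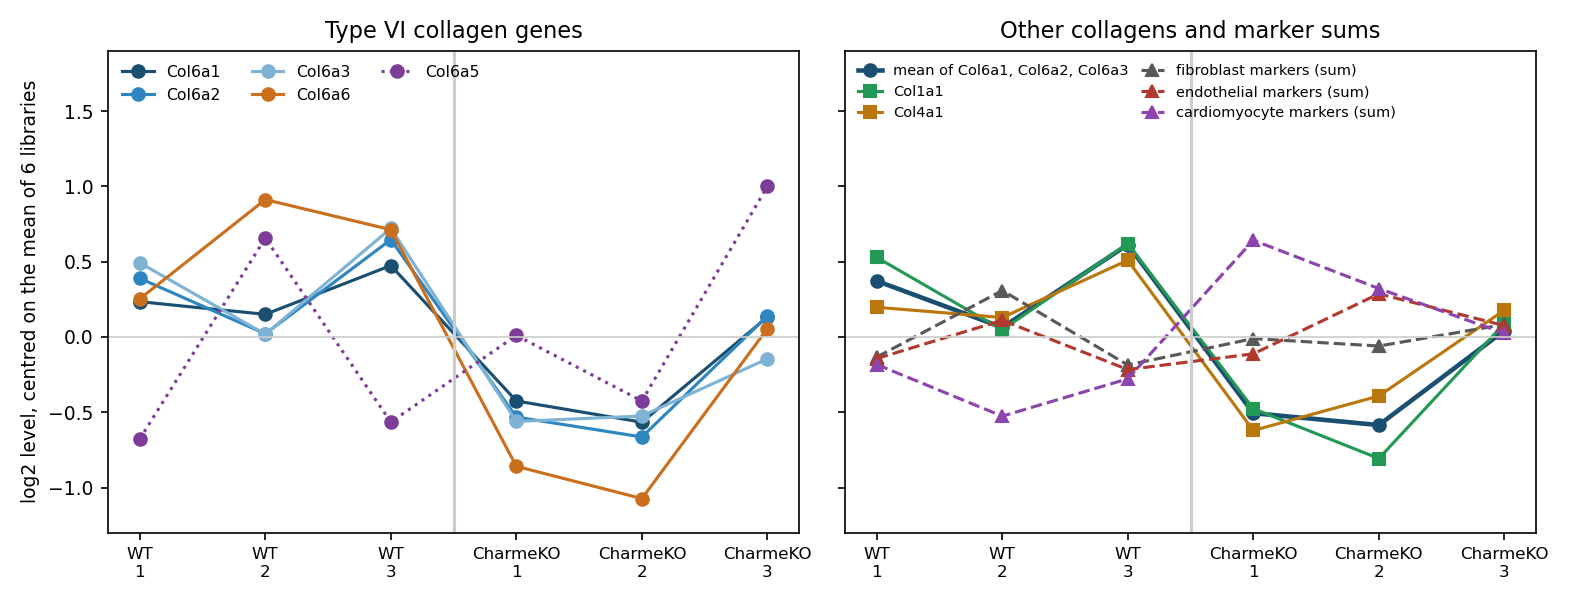
Log2 level in each library minus the mean over the 6 libraries (y axis), for the type VI genes (left) and for the mean of the main chains, 2 other collagens and 3 marker sums (right), with lines only joining the values of 1 gene or list. *Col6a1*, *Col6a2*, *Col6a3*, *Col1a1* and *Col4a1* run close together and are high in WT replicates 1 and 3, while the fibroblast sum is highest in WT replicate 2 and the cardiomyocyte sum is higher in each CharmeKO library than in any WT library.

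Partners of type VI collagen were examined as 4 lists of genes, in which edgeR called 0 genes and negative fold changes were more frequent than the 48.8% of all tested genes. Among 12 tested receptors, 9 fold changes were negative, with a median of −0.13, 2 were lower at an unadjusted p under 0.05 and DESeq2 called 1. Over all tested genes, 6.87% were lower at that p, 5.90% were higher and DESeq2 called 1.51% lower. *Cspg4*, which encodes the NG2 proteoglycan that binds type VI collagen and also marks mural cells, averaged 129 ± 5.65 CPM in WT libraries and 86.9 ± 17.5 CPM in CharmeKO (SD, n = 3). Its log2 fold change was −0.57 (standard error 0.144), with adjusted p-values of 0.126 in edgeR and 0.0161 in DESeq2. *Antxr1*, an anthrax toxin receptor that binds collagen, had a log2 fold change of −0.44 (adjusted p = 0.227), and *Itga3*, an integrin subunit, −0.28 (adjusted p = 0.561).

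Of 15 matrix partners 13 were tested, 1 other being at 0 in all libraries, and 11 fold changes were negative, with a median of −0.43. At an unadjusted p under 0.05, 6 were lower (6.87% of all tested genes) and 1 higher (5.90%), and DESeq2 called 5 lower (1.51%). The 3 with the lowest p were *Vwf*, a factor of endothelial cells with collagen-binding domains (636 ± 56.9 and 452 ± 49.5 CPM, log2 fold change −0.49, adjusted p = 0.159 in edgeR), *Matn4*, which encodes a matrilin (7.10 ± 2.31 and 3.22 ± 1.06 CPM, −1.13, adjusted p = 0.174), and *Fmod*, which encodes the proteoglycan fibromodulin (20.6 ± 3.06 and 9.32 ± 5.66 CPM, −1.14, adjusted p = 0.197), with SD over 3 libraries each.

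Among 21 genes for the folding, modification and secretion of collagen, the median was −0.13, with 16 negative fold changes, 4 lower genes at an unadjusted p under 0.05, beside 6.87% of all tested genes, and 0 calls by DESeq2. The lowest p-values were those of *Plod2*, a lysyl hydroxylase (log2 fold change −0.42, adjusted p = 0.268 in edgeR), *Sec24d*, a subunit of the coat that carries procollagen out of the endoplasmic reticulum (−0.36, adjusted p = 0.293), and *P4ha2*, a prolyl hydroxylase subunit (−0.35, adjusted p = 0.360).

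The 8 tested genes for cleavage had a median of −0.33, with 6 negative fold changes, 4 lower genes at an unadjusted p under 0.05 and 3 called lower by DESeq2, beside 6.87% and 1.51% of all tested genes. *Mmp14*, a membrane-bound matrix metalloprotease, averaged 236 ± 15.9 CPM in WT libraries and 163 ± 19.1 CPM in CharmeKO (SD, n = 3). Its log2 fold change was −0.54 (standard error 0.127), with adjusted p-values of 0.102 in edgeR and 0.00374 in DESeq2. *Bmp1*, the procollagen C-proteinase, was at 433.5 ± 50.5 and 291 ± 39.6 CPM (−0.58, adjusted p = 0.117 and 0.00408). *Mmp2*, a gelatinase, was at 1547 ± 257 and 977 ± 156 CPM (−0.66, adjusted p = 0.123 and 0.00232). In these 3 genes every CharmeKO library lay below every WT library, as in 8.59% of all tested genes.

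**Figure D5:**
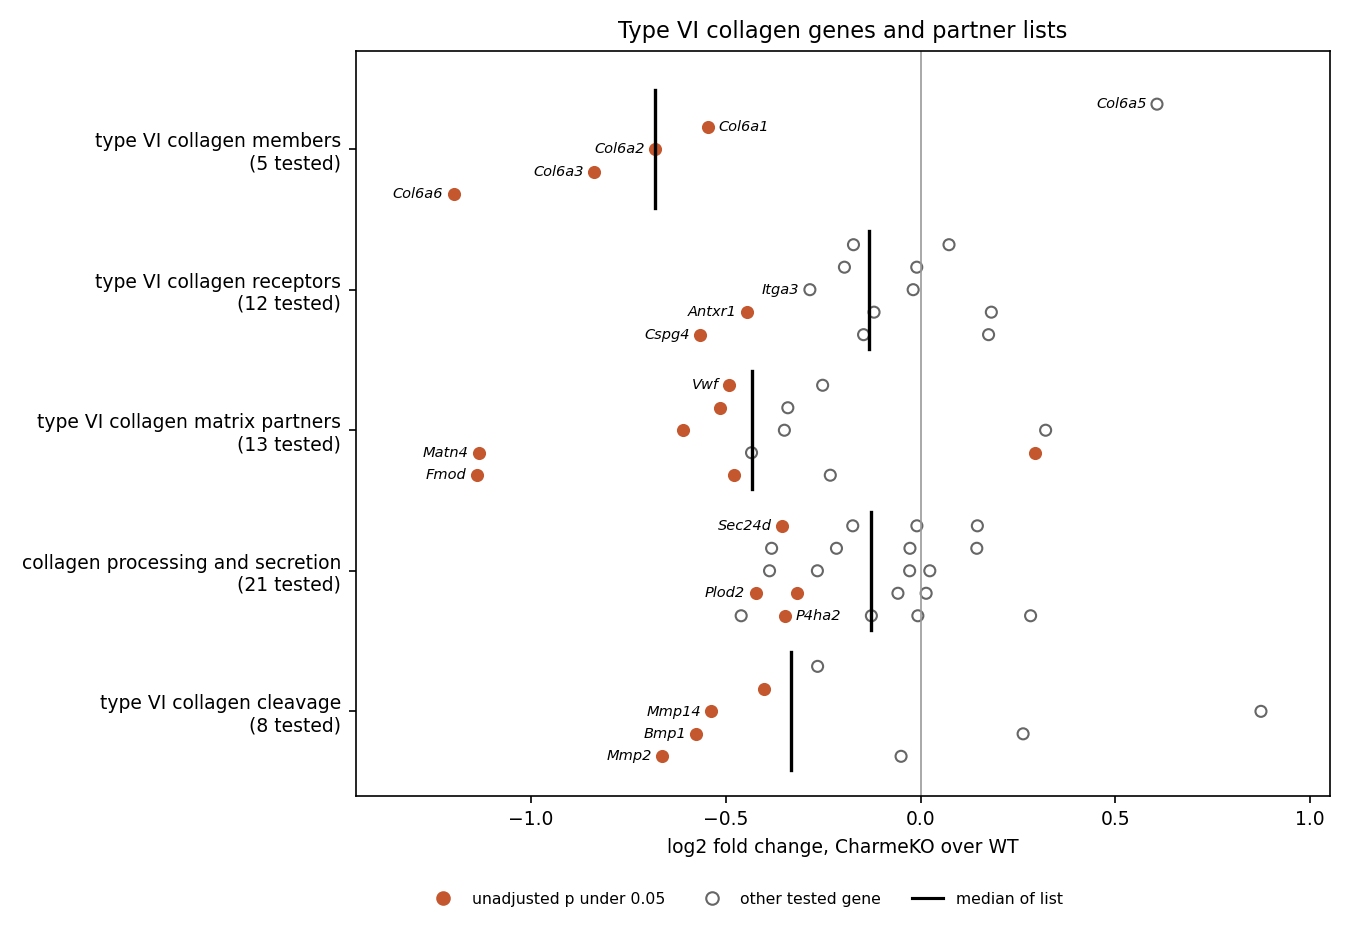
Log2 fold change of CharmeKO over WT (x axis) of each tested gene of the members and the 4 partner lists (y axis, vertical spread within a list only separates points), with filled points for an unadjusted p under 0.05 in edgeR, open points for the others and a bar at the median. The medians run from −0.68 for the 5 members through −0.43 for matrix partners to −0.13 for the collagen processing genes, and labels mark the members and the 3 genes of each list with the lowest p.

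Markers of other cells were read beside these results. The endothelial list, 16 genes, summed to 12500 to 15700 CPM in WT and 13500 to 17800 CPM in CharmeKO, and the erythroid list, 7 genes, to 26800 to 39200 and 24400 to 31700 CPM, so the libraries held more than fibroblast RNA. The mural list was at 2740 to 3110 and 2690 to 3170 CPM and the leukocyte list at 100.8 to 194 and 141 to 178 CPM. Cardiomyocyte markers were higher in every CharmeKO library, at 588 to 903 CPM against 402 to 510 CPM in WT, with 12 of 12 fold changes positive and 3 called higher by edgeR, beside 0.418% of all tested genes. The summed epicardial list was lower in every CharmeKO library, at 34.1 to 41.8 CPM against 57.9 to 76.5 CPM, with 7 of 7 tested genes negative. Most of that sum was *Wt1*, at 31.2 to 33.3 CPM in CharmeKO against 46.1 to 53.5 CPM in WT. *Wt1* was the 1 gene called by edgeR (log2 fold change −0.66, adjusted p = 0.0189), where 0.412% of all tested genes were called lower. CharmeKO libraries lay below all WT libraries in 2 of the 7 genes, against 8.59% of all tested genes. Schwann cell markers were at 35.8 to 41.2 CPM in WT and 31.9 to 35.7 CPM in CharmeKO, and the dissociation response list at 35200 to 51800 and 39800 to 45300 CPM, with 2 genes called higher. The part of these lists in the type VI collagen values was not tested.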

How the data were processed

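The authors aligned reads with STAR to GRCm39, counted them per gene in the reverse-strand setting, with *Charme* added to the annotation, and deposited raw counts, 1 column per library. The labels also list GRCh38, DESeq2 and a culture medium, while the study's methods describe freshly isolated cells. Genes reaching 10 counts in 2 or more of the 6 libraries were tested with edgeR 4.0.16 (R 4.3.3), by the quasi-likelihood test after TMM scaling, with Benjamini-Hochberg adjustment and a threshold of 0.05. The fits were tested on simulated data. The study's own test, DESeq2 1.42.0, was an alternative, run without independent filtering. The biological coefficient of variation was 20.2%, and no 2 libraries agreed within sampling noise. Transcript lengths came from GENCODE M21 on GRCm38, another build than that of the counts, and promoters from RefSeq on GRCm38.p6. Protein sequences were not analysed here, and 1 promoter stretch is not reported here.

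Members and lists were chosen with earlier results of these data known. Named genes are the members and *Col6a4*, of each partner list the 3 genes with the lowest p, the collagens used in ratios, and the 10 genes nearest to the profile of the main chains. *Xist*, *Pdgfra*, *Gsn*, *Cd248*, *Hsd11b1*, *Wt1*, *Hspa1a*, *Hspa1b* and *Charme* were named, some after their values were seen, outside this rule. The *Xist* split, the *Col6a6* to *Col6a3* ratio and the union exon length were added after the counts were seen. Values of 1 to 3 counts have no fold, and depth limits *Col6a5* and *Col6a4* most. Figures were drawn with matplotlib 3.10.9 in Python 3.11.15.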

Additional observations from a re-analysis of the deposited data

How the results depend on the processing

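Over 154 alternatives to 15 results, 123 kept their direction and their side of the threshold or stayed within 1.5 times the main count. For the summed CPM and the ratios, the permutation p could not fall under 0.05 in any alternative. Only their direction could change, so that part of the tally says nothing about the threshold. All genes called numbered 131, and 391 with DESeq2, 699 without a gene filter, 302 with the replicate number as a block, and 61 to 349 with 1 library left out. Of the members, 0 were called, and 2 with DESeq2 (*Col6a2* at −0.69, *Col6a3* at −0.85), 4 without a gene filter (*Col6a1* at −0.54, *Col6a2* at −0.68, *Col6a3* at −0.83, *Col6a6* at −1.19), where 1.81% of genes were called lower, 1 with the term for the *Xist* split (*Col6a6* at −1.00) and 0 to 2 with 1 library left out. Upper-quartile scaling, DESeq2's size factors and edgeR's filterByExpr left the count at 0. Log2 fold changes with 1 library left out were −0.79 to −0.41 for *Col6a1*, −0.97 to −0.52 for *Col6a2*, −1.01 to −0.67 for *Col6a3*, −1.63 to −0.99 for *Col6a6* and −0.28 to 2.00 for *Col6a5*, which changed sign without CharmeKO replicate 3. The ratio to fibrillar collagens ran from −0.099 to 0.031, and was positive without WT replicate 2 (0.031), CharmeKO replicate 1 (0.0013) or CharmeKO replicate 3 (0.0042). The cause of these changes was not tested.

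The replicate block called 3 members lower (*Col6a2* at −0.70, *Col6a3* at −0.82, *Col6a6* at −1.26), where 1.18% of genes were. The labels do not say that equal numbers mark a shared litter or day, so the numbers were not taken as pairs in the main fit. Deviations from the group means correlated at 0.216, 0.0535 and 0.161 between libraries of the same number and at −0.223 to 0.0391 between different numbers. Each library thus correlated best with its own number, and whether the numbers mark pairs is not known.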
